A study of Mus musculus with 6 samples.

Results

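The genes described here encode the subunits of the proteasome and the proteins that assemble, activate or inhibit it. They were taken by symbol, as all probes whose gene symbol in the platform's annotation table starts with Psm, followed by a letter from a to g and a number. This gave 78 of the 46632 probes, for 47 of the 17711 genes that the table names. Of these 47 genes, 23 had 1 probe and 24 had several. On embryonic day 9.5 the lens ectoderm of mouse embryos was laser-dissected from frozen sections of 10 microns, and its RNA was amplified and hybridised to an Illumina BeadChip. The knockout samples (KO 1 to KO 3) had lost type I BMP receptors in the lens placode by deletion. They were set against wild-type samples (WT 1 to WT 3), and the sample titles of both groups carry the tag ALK23. Embryos of both groups had a mixed background of the C57BL6 and FVB strains. The comparison asks which transcripts of the forming lens depend on BMP receptors. The sources used here do not name the Cre driver, the exons that were deleted or whether wild-type embryos carried Cre. The series text gives 3 embryos of each genotype and also speaks of pooling, so whether a sample is 1 embryo or a pool is not settled here. The p-values therefore reflect the spread between these 6 samples, part of which may be technical.

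The proteasome degrades proteins that have been tagged with ubiquitin. Its core particle is a barrel of stacked rings, in which alpha subunits form the gate and beta subunits carry the proteolytic sites. A regulatory cap on the end of the barrel recognises the ubiquitin chain, removes it and unfolds the substrate with a ring of ATPases. In cells exposed to interferon, and constitutively in many immune cells, the catalytic beta subunits encoded by Psmb5, Psmb6 and Psmb7 are replaced by those of Psmb8, Psmb9 and Psmb10, which gives the immunoproteasome. The standard subunits are made in nearly all cells.

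The promoters of 2 such pairs are shown first, because these genes are the standard subunits and the inducible ones that replace them. The windows run from 250 bases before to 50 bases after the annotated start, are written on the gene's strand and come from RefSeq (GRCm38.p6). Capitals mark matches on either strand to TGACNNNGC, the core of the antioxidant response element bound by the NFE2L1 and NFE2L2 factors, to CCAAT, the box bound by NF-Y, or to the core of the interferon-stimulated response element, which is GAAA, 2 bases of any kind and GAAA. None of these matches overlapped another in the sequences shown.
Psmb5, chr14:54617946-54618245, minus strand: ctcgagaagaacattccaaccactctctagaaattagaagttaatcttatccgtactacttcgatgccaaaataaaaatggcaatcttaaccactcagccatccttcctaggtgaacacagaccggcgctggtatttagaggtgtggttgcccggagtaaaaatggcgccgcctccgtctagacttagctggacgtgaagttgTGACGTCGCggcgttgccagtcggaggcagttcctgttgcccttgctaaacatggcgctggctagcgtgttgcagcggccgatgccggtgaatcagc
Psmb8, chr17:34197945-34198244, plus strand: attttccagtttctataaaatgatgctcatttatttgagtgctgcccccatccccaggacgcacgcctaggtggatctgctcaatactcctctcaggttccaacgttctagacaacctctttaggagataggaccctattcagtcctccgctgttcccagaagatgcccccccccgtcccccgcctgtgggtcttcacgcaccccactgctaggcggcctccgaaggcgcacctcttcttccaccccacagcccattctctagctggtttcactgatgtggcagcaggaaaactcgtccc
Psmb6, chr11:70525107-70525406, plus strand: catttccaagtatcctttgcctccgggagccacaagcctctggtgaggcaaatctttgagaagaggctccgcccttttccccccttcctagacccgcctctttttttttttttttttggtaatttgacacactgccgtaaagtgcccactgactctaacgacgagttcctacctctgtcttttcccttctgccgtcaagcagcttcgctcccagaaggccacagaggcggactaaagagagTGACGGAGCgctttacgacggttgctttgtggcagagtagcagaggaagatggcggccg
Psmb9, chr17:34187281-34187580, minus strand: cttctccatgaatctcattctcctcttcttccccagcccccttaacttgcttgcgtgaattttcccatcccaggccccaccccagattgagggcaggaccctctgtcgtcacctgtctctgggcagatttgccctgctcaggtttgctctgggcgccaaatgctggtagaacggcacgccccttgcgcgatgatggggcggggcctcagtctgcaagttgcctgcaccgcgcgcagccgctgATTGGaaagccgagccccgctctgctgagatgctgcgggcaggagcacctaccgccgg
Psmb5 and Psmb6 each held 1 match to the antioxidant element, and Psmb9 held 1 CCAAT box, on its opposite strand. Psmb8 held no match to any of these letters in this window. Windows were found for 40 of the 47 genes. The antioxidant core was present in 6 of these 40 (15%), against 14% of the 27025 genes in the promoter table. The CCAAT box was present in 14 of the 40 (35%), against 41.1% of all genes, and the interferon core in 5 (12.5%), against 3.99%. The 5 genes with the interferon core were Psmb3, Psmd4, Psmd9, Psme1 and Psmg4, none of which is an immunoproteasome gene. A match is a description of the letters only.

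Proteasome genes were widely detected in the lens ectoderm. A probe counts as detected on an array when its detection p-value, set against the negative control probes, is below 0.05, and it was tested when detected on at least 3 of the 6 arrays. Of the 78 probes, 55 (70.5%) were detected on all 6 arrays, against 34.6% of all probes with a gene symbol. At least 1 tested probe was available for 44 of the 47 genes, against 57% of all named genes, and Psmb9, Psmb11 and Psme2 had none. Intensities below are background corrected, quantile normalized and on a log2 scale, and each gene is given by its brightest tested probe unless another is named. Probes differ in how strongly they bind, so the signal of one gene is not a measure of its abundance relative to another.

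The 7 genes of the alpha ring and the 7 standard genes of the beta ring were each detected on all 6 arrays. Psma2, an alpha ring subunit, was at 12.94, 12.75 and 12.62 in KO and at 12.64, 12.78 and 12.70 in WT. Psmb7, which carries the trypsin-like site, was at 11.94, 11.95 and 11.98 in KO and at 11.86, 11.97 and 11.81 in WT. The KO and WT arrays of both genes overlapped. Psmb6, which carries the caspase-like site, had 11.47, 11.04 and 11.33 in KO and 11.31, 11.53 and 11.35 in WT. Psmb5, which carries the chymotrypsin-like site, had 7.74, 7.82 and 8.17 in KO and 7.14, 8.05 and 7.67 in WT. WT 1 was the lowest and KO 3 the highest array for Psmb5, and the genotypes overlapped.

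The immunoproteasome genes differed among themselves in detection. Psmb10 was detected on all 6 arrays by both of its probes. The brighter, ILMN_1259510, had 8.99, 9.55 and 9.5 in KO and 9.68, 8.69 and 9.65 in WT, and the other, ILMN_2757870, had 7.37, 8.51 and 7.92 in KO and 6.69, 6.59 and 8.61 in WT. Both probes were lowest on WT 2, but on WT 1 the first was at its highest and the second near its lowest. Psmb8 was detected by ILMN_1226683 on 3 KO and 2 WT arrays, with 7.52, 6.16 and 6.23 in KO and 5.32, 6.68 and 6.09 in WT. Its other probes were detected on 0 arrays (ILMN_2693940) and on 1 WT array (ILMN_2462164), so its detection rested on a single probe. Psmb9 was detected on 1 of the 6 arrays, KO 2, where its deposited intensity was 115.4, against 61.6 and 68.6 on the other KO arrays and 86.0, 52.6 and 61.6 on the WT arrays. The Psmb6 probe had 2839, 2103 and 3042 in KO and 2755, 2532 and 2570 in WT on the same deposited scale.

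**Figure D1:**
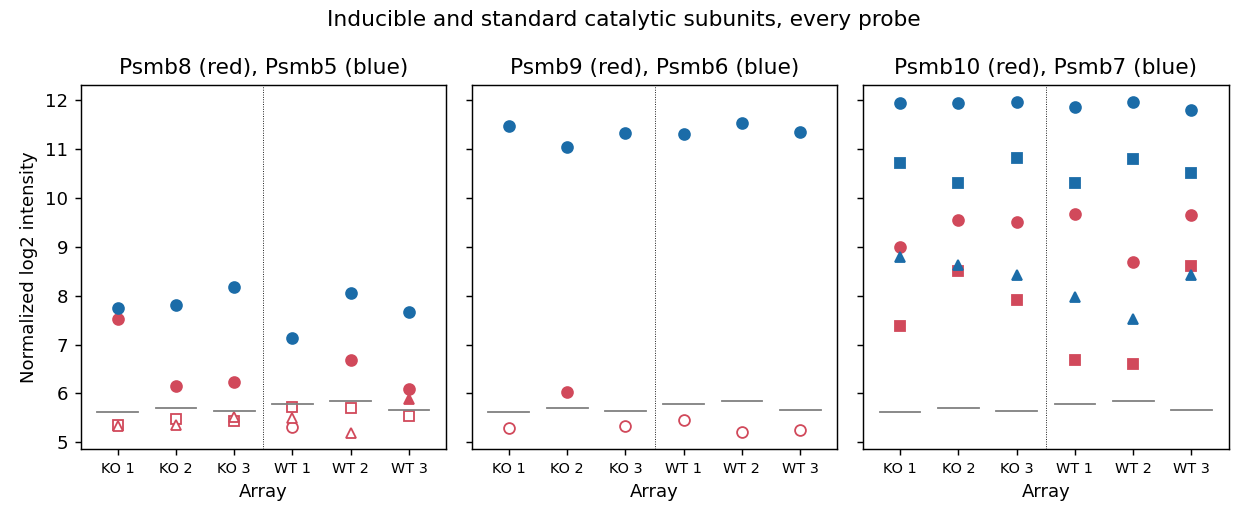
Normalized log2 intensity (y axis) of every probe of the inducible catalytic subunits (red) and of the standard subunits they replace (blue) on the 3 KO and 3 WT arrays (x axis). Marker shapes are different probes of a gene, open markers are arrays where the probe was not detected, and grey bars are the lowest detected signal of each array. Psmb9 has 1 filled marker, on KO 2, while all Psmb5, Psmb6, Psmb7 and Psmb10 markers are filled.

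Markers of immune cells, which use the immunoproteasome, were measured on the same arrays. Of 6 immune cell markers, 3 were measured, and their summed level ran from 8.59 to 9.34 in KO and from 8.57 to 9.72 in WT on a log2 scale. Ptprc, the pan-leukocyte marker, was detected on 0 KO arrays and 1 WT array by 1 of its 4 probes, and Cd52 on 0 of 6 arrays. Laptm5, a lysosomal protein of blood cells, had a log2 fold change of 0.17 (interval -1.46 to 1.80), and Tyrobp, a signalling adaptor of myeloid cells, had -0.08 (-0.61 to 0.45). The part of such cells in the Psmb8 and Psmb10 signals was not tested, and in a bulk sample fewer cells and less RNA per cell cannot be told apart. Among interferon and MHC class I genes, 5 of 9 genes with a probe could be measured, of which 2 had a higher and 3 a lower KO mean (1 and 4 under median scaling or with no background correction, where B2m turned), and 0 passed. Tap1 and Tap2, the peptide transporter genes next to Psmb8 and Psmb9, and the interferon-induced gene Ifit1 were detected on 0 arrays, while B2m, the light chain of MHC class I, was detected on 6. Tapbp, which loads peptide onto MHC class I, had a log2 fold change of 0.40 (-0.46 to 1.26), and H2-K1, an MHC class I heavy chain, had -0.34 (-1.96 to 1.27). With 1 array left out, Tapbp turned to -0.0013 without KO 1, H2-K1 to 0.45 without KO 3, Laptm5 to -0.64 without WT 3 and Tyrobp to 0.072 without KO 1.

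The core subunits of restricted tissues differed in detection. Psmb11, the thymic subunit, was detected on 0 of 6 arrays, with values from 5.47 to 5.54 in KO and from 5.37 to 5.59 in WT. Psma8, the testis form of an alpha subunit, was detected on all 6 arrays by 1 probe, at 6.59 to 7.57 in KO and 5.94 to 7.37 in WT, and on 0 arrays by its other probe. The data do not settle which of these probes follows the transcript.

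No proteasome probe passed the test between KO and WT. Of 65 tested probes, 0 had a limma adjusted p below 0.05, where 0% of all 20959 tested probes did, and adjusted p ran from 0.989 to 0.999 among the members. At an unadjusted p below 0.05 there were 3 member probes (4.62%), against 4.49% of all tested probes. With 1 probe a gene, 32 of the 44 genes had a higher and 12 a lower mean in KO, against 49.2% of all 10099 tested genes with a higher mean, and the split was 25 of 44 higher when arrays were scaled by their medians instead of by quantiles. The median log2 fold change of the 44 genes was 0.06, against -0.01 for all tested genes. Arrays of the 2 genotypes were fully separated for 4 of 44 genes, against 9.61% of all tested genes, and for 7 of the 65 probes, against 9.82% of all tested probes. A 2-fold difference in either direction fell outside the 95% interval for 28 of the 44 (63.6%), against 45.7% of all tested genes. These 2 shares were not matched for signal, and dim probes vary more.

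**Figure D2:**
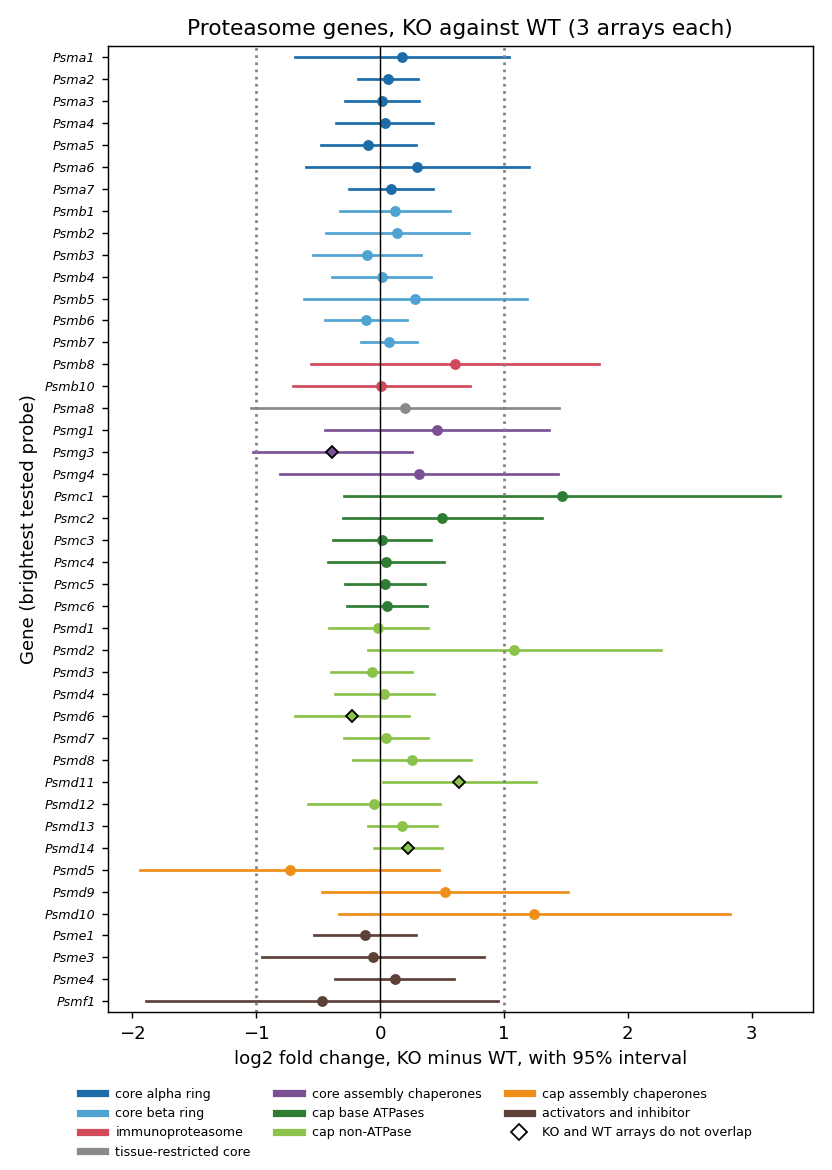
Log2 fold change, KO minus WT, of the brightest tested probe of each of the 44 measured proteasome genes (x axis, points) with the 95% interval of the limma fit (lines), 3 arrays per genotype. Colours are subunit classes, diamonds mark the 4 genes whose KO and WT arrays do not overlap, and dotted lines mark a 2-fold change. The points of the 14 standard core subunits lie between -0.11 and 0.30, and the widest intervals belong to Psmc1, Psmd10 and Psmf1.

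On the brightest probe of each gene, differences within the core particle were small. Alpha ring genes had log2 fold changes from -0.09 to 0.30 with a median of 0.06, and 6 of 7 had a higher KO mean, or 4 of 7 under median scaling. Standard beta ring genes ran from -0.11 to 0.29 with a median of 0.07, and 5 of 7 had a higher KO mean, or 4 of 7 under median scaling. The log2 fold change was 0.07 for Psmb7 (interval -0.15 to 0.30), -0.11 for Psmb6 (-0.44 to 0.22) and 0.29 for Psmb5 (-0.61 to 1.18). Psmb5 gave 0.04 without WT 1, 0.16 without KO 3 and 0.50 without WT 2. The other tested probes of Psmb7 gave 0.07 on ILMN_1233153 and 0.64 (-0.12 to 1.40) on the dimmer ILMN_1221340, which had 8.79, 8.62 and 8.43 in KO and 7.98, 7.52 and 8.43 in WT. Its KO arrays lay above its WT arrays, with KO 3 and WT 3 nearly equal. A change of 2-fold lay outside the interval for 5 of the 7 alpha and 6 of the 7 beta genes. For the inducible subunits, Psmb8 had 6.63 ± 0.76 in KO and 6.03 ± 0.68 in WT (SD, n = 3 each), a log2 fold change of 0.60 (interval -0.56 to 1.77, limma adjusted p = 0.989). For Psmb8 this was 0.16 without KO 1, 0.25 without WT 1, 0.93 without WT 2 and 1.04 with the authors' processed values. Psmb10 had 9.35 ± 0.31 in KO and 9.34 ± 0.56 in WT (SD, n = 3 each), a log2 fold change of 0.01 (-0.71 to 0.73) that was -0.02 under median scaling. The second Psmb10 probe gave 0.64 (-0.77 to 2.04).

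The ATPases of the cap base, which unfold the substrate, had a higher KO mean in 6 of 6 genes, or in 4 of 6 under median scaling, where Psmc3 and Psmc5 turned, with log2 fold changes from 0.02 to 1.47 and a median of 0.05, and 0 passed. Psmc3, Psmc4, Psmc5 and Psmc6 lay between 0.02 and 0.06. Psmc1 was at 8.77, 8.59 and 7.94 in KO and at 6.53, 5.52 and 8.83 in WT. WT 3 had the highest value of all 6 arrays and WT 2 the lowest, where the probe was not detected, so KO and WT values overlapped. For Psmc1 the log2 fold change was 1.47 (interval -0.29 to 3.23, limma adjusted p = 0.989), 0.75 without WT 2 and 2.40 without WT 3. The beads of this probe gave a mean standard error of 17.3% of its deposited intensity, the largest among the 44 measured genes. Psmc2 had 0.50 (-0.30 to 1.31).

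The other cap subunits include the ubiquitin receptor Psmd4, the deubiquitinating enzyme Psmd14 and the scaffolds Psmd1 and Psmd2. Of 11 measured genes of this kind, 7 had a higher and 4 a lower KO mean (6 and 5 under median scaling, where Psmd7 turned), with log2 fold changes from -0.23 to 1.08 and a median of 0.04. Psmd14 had 11.15, 11.08 and 11.18 in KO and 10.98, 10.81 and 10.94 in WT. All KO arrays lay above all WT arrays, by a log2 fold change of 0.22 (interval -0.05 to 0.50, limma adjusted p = 0.989). Psmd11, a lid subunit, had 8.76, 8.84 and 8.67 in KO and 7.93, 8.11 and 8.32 in WT on its brighter probe, again without overlap, a log2 fold change of 0.64 (0.02 to 1.26, limma adjusted p = 0.989). Its dimmer probe, ILMN_1230682, lay near the detection floor and was not detected on KO 1. That probe separated the genotypes the other way, with 5.47, 5.88 and 5.74 in KO and 6.89, 5.94 and 6.17 in WT. Its log2 fold change was -0.64 (-1.37 to 0.09). The mean log2 fold change over both Psmd11 probes was 0.00. Psmd6, also of the lid, had 9.01, 9.19 and 9.20 in KO and 9.5, 9.24 and 9.34 in WT. Its KO arrays lay below its WT arrays, by a log2 fold change of -0.23 (-0.69 to 0.24), and its second probe gave 0.13. Psmd2, a scaffold of the base, had 8.75, 8.82 and 8.51 in KO and 6.47, 7.76 and 8.60 in WT. WT 3 lay within the KO range, and the log2 fold change was 1.08 (-0.10 to 2.26), and 0.51 without WT 1.

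Several genes for proteins that assemble the cap varied widely between arrays. Psmd10, also called gankyrin, which holds an ATPase during cap assembly, had 9.10, 7.67 and 8.65 in KO and 5.92, 7.12 and 8.63 in WT. The log2 fold change of Psmd10 was 1.25 (-0.33 to 2.83), 0.59 without WT 1 and 1.95 without WT 3. Its dimmer probes gave -0.20 (ILMN_2632408) and 0.82 (ILMN_1239384), so the signs differed, and the mean over the 3 probes was 0.62. Both dimmer Psmd10 probes lay near the detection floor, with means of 6.12 and 6.07 over the arrays. Each was detected on 3 KO arrays and 1 WT array. Psmd9, another such chaperone, had 9.86, 8.91 and 9.59 in KO and 8.44, 8.44 and 9.92 in WT, a log2 fold change of 0.52 (-0.47 to 1.51). For both genes KO 1, KO 3 and WT 3 were high and WT 1 and WT 2 low. Psmd5, the third cap chaperone, had 5.40, 5.33 and 6.86 in KO and 7.12, 6.89 and 5.78 in WT, and was detected on 1 KO and 3 WT arrays. Its log2 fold change was -0.73 (-1.94 to 0.48), and -0.46 without KO 2 to -1.23 without KO 3. Psmg3, a core chaperone near the detection floor, had 5.73, 5.91 and 6.04 in KO and 6.21, 6.08 and 6.56 in WT. The Psmg3 arrays did not overlap, with a log2 fold change of -0.39 (-1.03 to 0.25, limma adjusted p = 0.989), and -0.25 without WT 3. Psmg1 and Psmg4, which also assemble the core, had 0.46 and 0.31.

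Activators open the gate of the core without ubiquitin. Psme1, part of the interferon-inducible activator, had 10.49, 10.38 and 10.55 in KO and 10.27, 10.88 and 10.64 in WT. Its partner Psme2 was detected on 2 KO arrays and 0 WT arrays and was not tested, with 5.80, 5.69 and 5.75 in KO and 5.24, 5.24 and 5.48 in WT. The KO values of Psme2 lay close to the lowest detected signal, so no fold is given. Psme3, the nuclear activator, had -0.06 (-0.95 to 0.84), and Psme4 had 0.12 (-0.36 to 0.60). Psmf1, a proteasome inhibitor, had 7.23, 6.97 and 8.43 in KO and 7.97, 9.11 and 6.96 in WT, a log2 fold change of -0.47 (-1.89 to 0.95). WT 2 had the highest Psmf1 value, and without WT 2 the log2 fold change was 0.08.

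Arrays of the same genotype also differed from each other. KO 3 was the highest of the 6 arrays for 13 of the 44 genes and the lowest for 1, while WT 1 and WT 2 were each the lowest for 13. Of all tested genes, 12.9% were highest and 12.3% lowest on KO 3, while 20.9% were lowest on WT 1 and 26.7% lowest on WT 2. The share of the 44 genes that was lowest on WT 2 was thus near that of all genes. The median deviation of the 44 genes from their own mean was 0.09, -0.05 and 0.15 on KO 1 to KO 3 and -0.08, -0.14 and 0.09 on WT 1 to WT 3. On this pooled median WT 3 lay with KO 1 and KO 3, and KO 2 with the other WT arrays. For all tested genes these medians ran from -0.02 to 0.02 in KO and from -0.05 to 0.05 in WT. Not every class followed the pooled order. The cap base ATPases had 0.12 on KO 2 and -0.03 on WT 3, and the other cap subunits had 0.06 on KO 2. The cap assembly chaperones did follow it, with -0.28 on KO 2 and 0.73 on WT 3.

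**Figure D3:**
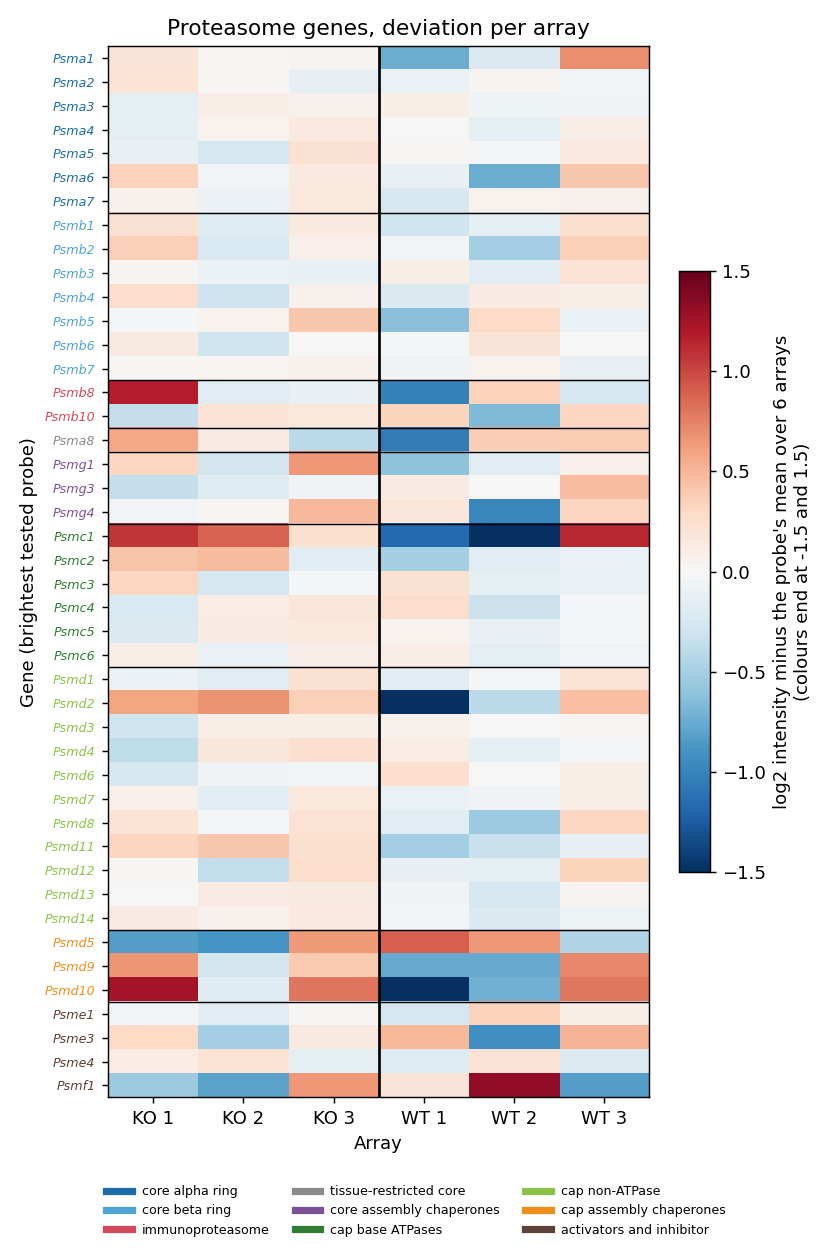
Deviation of each measured proteasome gene from its own mean over the 6 arrays (colour, log2), with genes grouped by class (rows) and arrays in columns, 3 KO arrays left of 3 WT arrays. Most core and cap subunits are pale on every array, and deviations beyond 1 in either direction belong to Psmb8, Psma8, Psmc1, Psmd2, Psmd10 and Psmf1.

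The spread between arrays ran over a wide range among the members. Psmb7 had the smallest SD over the 6 arrays, 0.07, followed by Psma3 and Psmc6 with 0.10 and 0.11. Psma3, an alpha subunit, had 10.91, 11.16 and 11.13 in KO and 11.15, 10.99 and 11.01 in WT, and Psmc6, a base ATPase, had 10.73, 10.53 and 10.73 in KO and 10.73, 10.49 and 10.59 in WT. Psma3 had a log2 fold change of 0.02 (-0.28 to 0.31) that was -0.04 under median scaling, and Psmc6 had 0.06 (-0.26 to 0.38). Psmc1, Psmd10 and Psmd2 had the largest SDs, of 1.37, 1.19 and 0.91. As dim probes vary more, each gene was also placed among the 500 tested probes nearest to it in signal. The median percentile of the 44 genes was 40.2, with 5 genes below the tenth and 4 above the ninetieth percentile. Those 4 were Psmc1 (98.4), Psme3 (96.4), Psmd10 (95.0) and Psmd9 (93.0). The beads of a probe within an array gave a median standard error of 3.92% of the deposited intensity, or 0.0566 on the log2 scale. The median SD within a genotype between arrays was 0.249 on the normalized values. Over all tested genes these medians were 4.22%, 0.0609 and 0.399. The deposited intensity still holds background, so the bead error and the SD are on different scales. The largest bead error of a member was 17.3%, for Psmc1, and at this rounding no tested gene had a higher one.

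**Figure D4:**
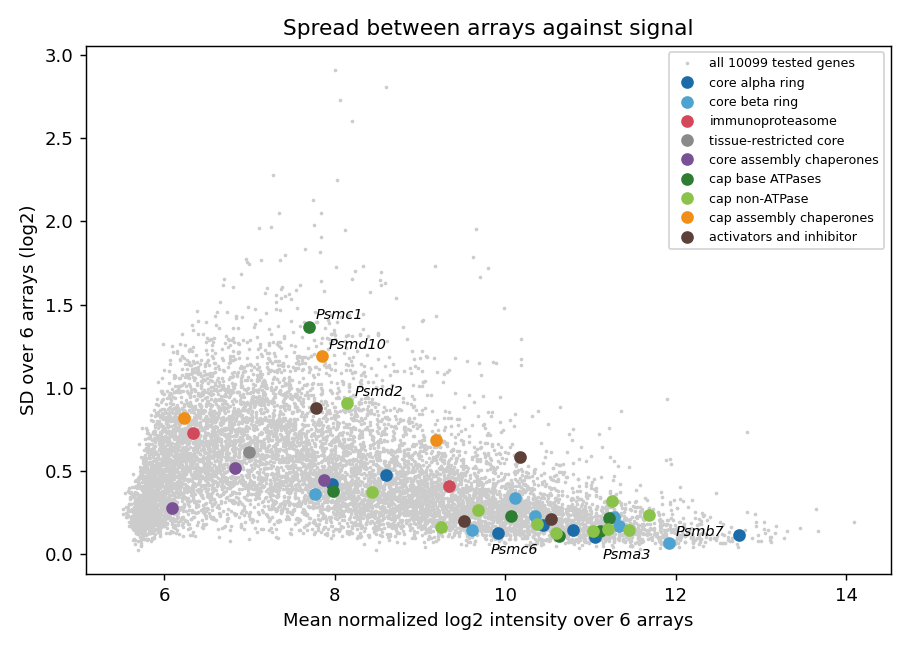
SD over the 6 arrays (y axis, log2) against the mean normalized log2 intensity (x axis) for the 44 measured proteasome genes, coloured by class, and for all 10099 tested genes (grey, 1 probe a gene). Most proteasome genes lie low at the bright end, and Psmc1 and Psmd10 lie in the upper part of the cloud.

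Different probes of a gene often gave opposite signs. Of 18 genes with more than 1 tested probe, 7 had the same sign in all of them. With exactly 2 tested probes this held for 6 of 15 genes (40%), against 53.1% of 2385 genes on the array, and with 3 for 1 of 3, against 32.9% of 806. Psmd7, a lid subunit, had a log2 fold change of 0.04 on its brightest probe, -0.62 (-1.18 to -0.06) on ILMN_1220284 and 1.61 (0.18 to 3.04) on ILMN_1253915. The last had 8.47, 8.43 and 6.88 in KO and 5.65, 6.03 and 7.25 in WT, and ILMN_1220284 had 9.34, 9.93 and 9.53 in KO and 9.92, 10.09 and 10.64 in WT. Psmd8 gave 0.26 and -0.40 on its probes. Psme1 gave -0.12 and -0.08, and its probes were both highest on WT 2 and lowest on WT 1. The sources used here do not place the probes within their transcripts.

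**Figure D5:**
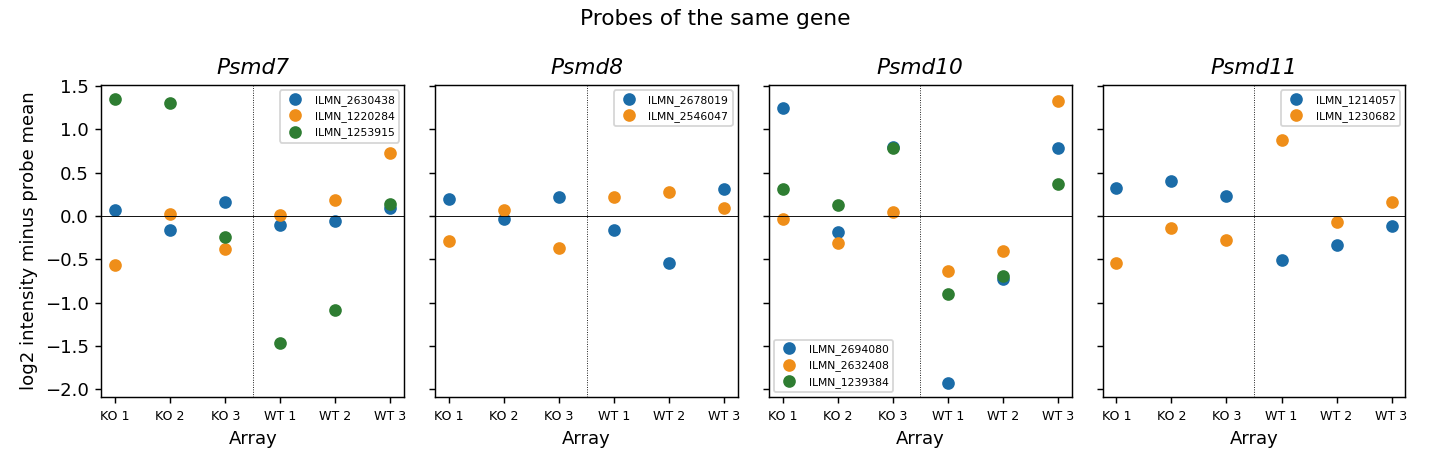
Normalized log2 intensity minus the probe's own mean over the 6 arrays (y axis) for each tested probe (colour) of Psmd7, Psmd8, Psmd10 and Psmd11 on the 3 KO and 3 WT arrays (x axis). The Psmd11 probes separate KO from WT in opposite directions, and the Psmd10 probes are all high on WT 3 and low on WT 1. The dimmer probes of Psmd10 and Psmd11 lie near the detection floor.

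Other genes of the ubiquitin-proteasome system also stayed short of the threshold. Of 20 such genes with a probe, 19 could be measured, of which 14 had a higher and 5 a lower KO mean (13 and 6 under median scaling), and 0 passed, with a median log2 fold change of 0.12. Arrays of the 2 genotypes were separated for 3 of the 19, Nfe2l2, Pomp and Sem1, all higher in KO, against 9.61% of all tested genes. Nfe2l2, a factor that induces proteasome genes under oxidative stress, had 7.46, 7.50 and 7.02 in KO and 5.70, 5.77 and 6.54 in WT. It was detected on 3 KO arrays and 1 WT array, with a log2 fold change of 1.32 (0.36 to 2.29, limma adjusted p = 0.989), and its second probe was detected on 1 array of each genotype. Nfe2l1, which induces proteasome genes when proteolysis is blocked, had 0.06 (-0.42 to 0.53). Ufd1, a cofactor of the unfolding ATPase Vcp, had 1.26 (-0.10 to 2.62), and 0.78 without WT 1, while Vcp had 0.12. Pomp, which matures the core, had 12.24, 12.02 and 12.16 in KO and 11.94, 11.99 and 12.01 in WT, a log2 fold change of 0.16 (-0.07 to 0.39). Sem1, a small subunit of the lid, had 11.23, 11.27 and 11.37 in KO and 11.08, 10.89 and 11.16 in WT, a log2 fold change of 0.24 (-0.04 to 0.53).

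Markers of the lens and of neighbouring tissues were measured on the same arrays. The arrays detected 43% to 45.7% of all probes in KO and 39.6% to 44.7% in WT. Of 9 lens and surface ectoderm markers 8 were measured, Foxe3 was not, and their summed level ran from 13.00 to 13.69 in KO and from 12.93 to 13.57 in WT. The summed optic vesicle level, over 6 of 7 markers, ran from 9.92 to 11.10 in KO and from 8.90 to 11.49 in WT, that of periocular mesenchyme, over 6 of 7, from 10.98 to 11.25 in KO and from 10.94 to 11.33 in WT. Blood, over 5 of 7, ran from 12.14 to 12.91 in KO and from 11.94 to 13.11 in WT. Endothelium, over 4 of 6, ran from 8.69 to 10.27 in KO and from 8.93 to 9.87 in WT. Within the lists the signs were mixed. Of the measured lens and surface ectoderm markers, 7 had a higher KO mean and 1, Six3, a lower one. Optic vesicle and periocular mesenchyme each had 2 higher and 4 lower. Blood had 1 higher and 4 lower, and endothelium 2 and 2. The members of these lists with the largest differences were Six3 (-0.66) and Sox2 (0.44), Pmel (-1.36) and Dct (-0.98), Col3a1 (-1.09) and Alx1 (-0.86), Tal1 (-1.15) and Klf1 (-1.08), and Emcn (-0.84) and Flt1 (0.37), as log2 fold changes, and 0 passed. With 1 array left out, every one of these values moved by more than 1.5 times, from -0.12 (without KO 1) to -0.99 (without WT 1) for Six3, from -0.65 (without WT 1) to -2.57 (without KO 1) for Pmel, from -0.16 (without KO 2) to -2.47 (without WT 2) for Dct, from -0.39 (without KO 2) to -1.89 (without KO 1) for Col3a1 and from -0.36 (without WT 3) to -1.66 (without WT 2) for Alx1. Tal1 ran from -0.59 (without WT 1) to -1.72 (without WT 2), Emcn from -0.21 (without KO 2) to -1.54 (without KO 1) and Flt1 from 0.11 (without KO 2) to 0.72 (without WT 1), Klf1 gave -0.61 without WT 1, and Sox2 turned to -0.08 without WT 1. Klf1, an erythroid factor, was detected on 0 KO and 3 WT arrays. With each KO value raised to the lowest detected signal of its array, the mean WT signal of Klf1 was 1.91-fold higher. This ratio takes no account of the spread, and the limma interval of the Klf1 log2 fold change ran from -2.04 to -0.12. The part of these tissues in the spread of the proteasome genes was not tested.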

How the data were processed

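Bead-level summaries of 6 arrays, 3 KO and 3 WT, all on 1 slide, were used. The deposited table held, per the file headers, a mean bead intensity, a bead count, a standard error and a detection p-value for each probe and array. The submitters' processing notes name GenomeStudio. The deposited intensity was linear and not background subtracted, as its values show. A second deposited table held processed intensity values with no stated method, and it served as an alternative. Background was corrected with normexp, for which the detection p-values gave the negative controls, an offset of 16 was added and arrays were quantile normalized (neqc, limma 3.58.1, R 4.3.3). Probes detected on at least 3 arrays entered lmFit and eBayes with a variance trend, KO minus WT without covariates, with Benjamini-Hochberg adjustment over 20959 probes. All tests were two-sided and intervals are 95% intervals of this limma fit. The brightest tested probe stood for its gene. Gene symbols came from the platform's annotation, and all 78 member probes matched the RefSeq gene table by Entrez identifier with 0 symbol changes. The number of arrays limits the precision, and the bead number was 12 to 62 on an array over the 78 member probes.

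The members, gene lists and tests were chosen with earlier results of these data known. Values in every array were given for the immunoproteasome genes and the standard subunits they replace, the 4 highest and 4 lowest log2 fold changes, genes without overlap and the 3 largest and 3 smallest SDs, and the 2 largest differences of each other list were named. Psma2, Psmd7, Psmd9, Psme1, Psme2, Nfe2l1, Vcp, Pomp and Sem1 were added after their values were seen. Samples carry the numbers 1 to 3 within each genotype, but the deviations of equally numbered arrays correlated at 0.11, 0.14 and -0.01, so the numbers were not taken as pairs.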

Additional observations from a re-analysis of the deposited data

How the results depend on the processing

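Under every alternative run, limma called 0 proteasome probes and 0 of all probes at an adjusted p of 0.05. At an unadjusted p below 0.05 there were 1 to 10 proteasome probes. Without WT 3 there were 10 of 65, against 1485 of all 20959 probes, and without WT 1 there was 1 of 65, against 1174. The count over all probes was lowest without KO 3, at 579 of 20959, with 2 of 65 proteasome probes. It was highest with no detection filter, at 1961 of 46632, with 4 of 78 proteasome probes. The median log2 fold change of the proteasome genes stayed between 0.01 (median scaling) and 0.14 (without KO 2). The number of genes with a higher KO mean was 32 of 44 also with no background correction, an offset of 50, the authors' processed values and the mean of the probes of a gene, 35 of 47 with no detection filter, 29 of 40 with detection on all 6 arrays, 28 with array weights, 25 with median scaling, and 24 (without KO 3) to 33 (without KO 2 or without WT 3) with 1 array left out. The fit with the replicate block also gave 0 calls, and 986 probes at an unadjusted p below 0.05 against 941 without it. This block is balanced over the genotypes, so the median of 0.06 could not change. Of 499 values of 32 named genes under the alternatives, 480 kept their sign and 19 did not, none of them past the threshold. The 499 include the fits with the replicate block, without the variance trend and with other detection filters. Those settings cannot change the fold change of a probe, so their unchanged signs say nothing about stability. Psmb10 was -0.021 with median scaling and -0.058 with array weights, Psma3 -0.042 with median scaling, and Psmf1 0.091 with array weights. With 1 array left out, the log2 fold change ran from -0.31 to 0.19 for Psmb10, from -0.032 to 0.096 for Psma3, from -0.21 to 0.0075 for Psmb6, from -0.997 to 0.081 for Psmf1, from -0.82 to 0.45 for H2-K1, from -0.64 to 0.93 for Laptm5, from -0.078 to 0.90 for Sox2, from -0.0013 to 0.68 for Tapbp and from -0.25 to 0.072 for Tyrobp. Array weights moved Psmc1 to 0.70, Psmd10 to 0.76, Psmd5 to -0.25 and Ufd1 to 0.81, with the sign of these genes kept. The authors' processed values moved Psmd5 to -1.42 and Flt1 to 1.07. With 1 array left out, Psmb7 ran from 0.038 to 0.12 and Psmc6 from 0.0034 to 0.13. The cause of these changes was not tested. The offset compresses dim signals, which limits what can be said of Psmb8, Psmb9, Psmd5, Psme2 and Psmg3. Groups of 3 arrays were too small for a test of outlying samples.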
